A study of Mus musculus with 6 samples.

Results

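Rbfox1, Rbfox2 and Rbfox3 encode the 3 members of a family of RNA-binding splicing factors, and they were followed here in adrenal medulla of mice after cardiac pressure overload. One group of mice had undergone transverse aortic constriction (TAC, which narrows the aorta so that the heart must pump against a raised pressure), and the other a sham operation. All animals were male C57/Bl6 mice and were studied 8 weeks after surgery. The medulla was dissected under a microscope from 12 µm frozen sections, and an Affymetrix mouse genome array was hybridised per animal (6 in all, 3 in each group) with RNA amplified in repeated rounds from both of its medullae. This array measures a gene with one probe set or several, each a set of short oligonucleotides placed mainly towards the 3′ end of the transcript. The members were all probe sets whose single gene symbol in GEO's platform annotation is Rbfox1, Rbfox2 or Rbfox3, which gave 3 genes of 18193 named ones and 11 of the 45101 probe sets on the array, 4 for Rbfox1, 4 for Rbfox2 and 3 for Rbfox3. The family was chosen because 1 probe set of Rbfox3 and 1 of Rbfox2 were already known to separate TAC from sham in these data, so its TAC and sham values are described below and not tested.

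Rbfox proteins recognise the short RNA word UGCAUG through a single RNA recognition motif. Bound downstream of an alternative exon they mostly promote its inclusion, and bound upstream they mostly promote its skipping. Rbfox1 is known from neurons, heart and skeletal muscle, Rbfox2 is expressed in many tissues, and Rbfox3 is the protein NeuN, used as a marker of mature neurons. The chromaffin cells of the medulla, which release adrenaline and noradrenaline, share their neural crest origin with sympathetic neurons. These arrays read transcript amount near the 3′ end, and the use of the exons that Rbfox proteins control was not analysed here.

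The tissue label matched its markers. Of 10 chromaffin cell markers 9 were measured, their mean log2 intensity was 12.46 to 13.20 in the TAC arrays and 12.63 to 13.04 in the sham arrays, and Th, Dbh, Pnmt, Chga and Chgb all averaged above log2 12 in both groups. Adrenal cortex was also present to a varying extent, with a marker mean from 6.30 to 9.57 in TAC and from 6.41 to 10.97 in sham arrays. The arrays differed in 3′ bias, taken as the log2 signal of the Gapdh 3′ control minus that of its 5′ control, which is larger where transcripts are shortened. It was 4.71, 3.67 and 3.98 in TAC 1, 2 and 3, and 5.15, 3.08 and 2.88 in sham 1, 2 and 3. Sham 1 therefore stood apart from the other sham arrays in this measure. The groups did not differ in it beyond the spread between arrays (difference 0.42, exact 2-sided permutation p = 0.6), where 0.1 is the smallest p that 3 against 3 arrays allow.

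Values below are log2 intensities, and differences are TAC minus sham on that scale. A log2 value of 4 was used as the limit of reliable signal, and a probe set entered the test over all probe sets if it reached that limit on at least 3 of the 6 arrays. Of the 11 Rbfox probe sets 5 did so, 2 of Rbfox1, 1 of Rbfox2 and 2 of Rbfox3. The Rbfox2 probe set passed through its sham arrays alone. The groups did not overlap in 2 of these 5, against 13.0% of all 18188 probe sets that passed, and because the family was chosen on this contrast nothing is read from that count. The plot of all probe sets by array shows the values.

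**Figure D1:**
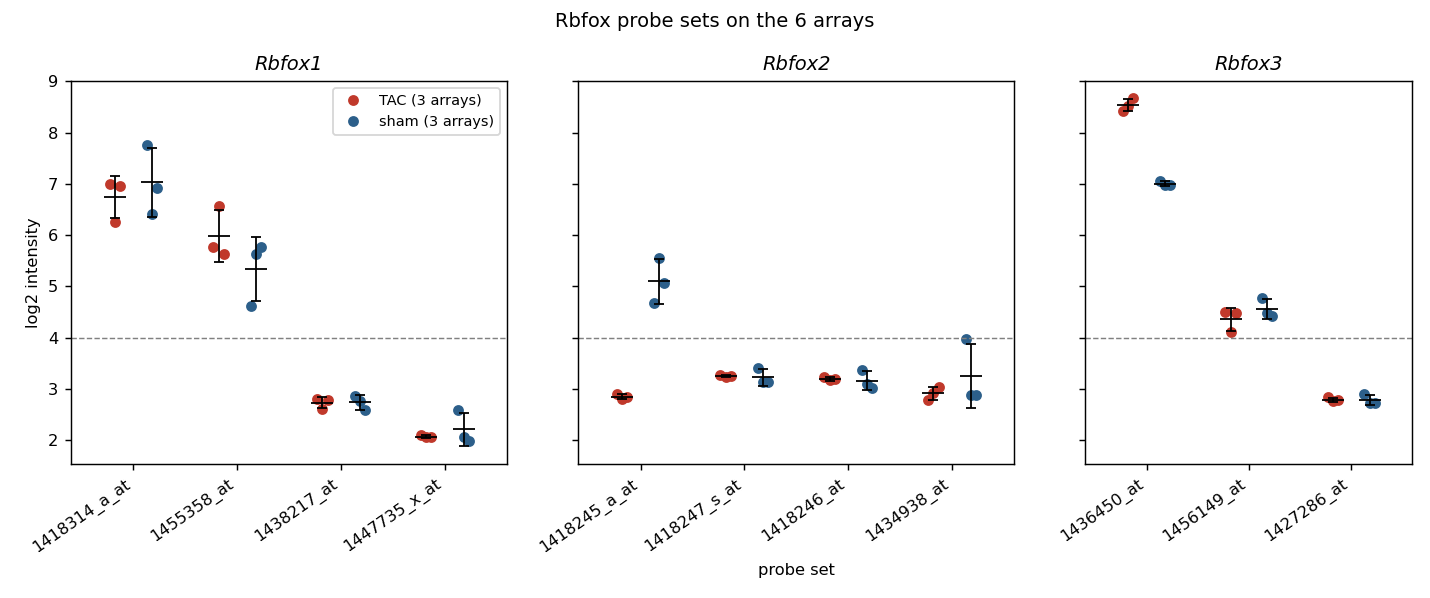
Log2 intensity (vertical axis) of the 11 Rbfox probe sets (horizontal axis, 1 panel per gene) on 3 TAC arrays (red, left) and 3 sham arrays (blue, right). Points are arrays, black bars the mean ± SD (n = 3), and the dashed line marks log2 4. Probe set 1436450_at of Rbfox3 lies higher in TAC and 1418245_a_at of Rbfox2 lies above the line in sham arrays, while 6 probe sets stay below the line on every array.

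Rbfox3, the gene of the neuronal marker NeuN, lay higher after TAC in 1 of its 3 probe sets, with values above the limit on all 6 arrays. Probe set 1436450_at read 8.43, 8.52 and 8.67 in TAC 1, 2 and 3, against 7.06, 6.99 and 6.98 in sham 1, 2 and 3. Every TAC array lay above every sham array, with 1.37 log2 units between the lowest TAC and the highest sham value. On the linear scale these readings were 344, 367 and 407 in TAC and 134, 127 and 126 in sham. The group means were 8.54 ± 0.12 after TAC and 7.01 ± 0.05 after sham (SD, n = 3 each), a difference of 1.53 or 2.89-fold. The pooled SD within groups was 0.09 for this probe set, against a median of 0.51 over all tested probe sets, and 2.26% of them had a smaller one. A small spread was part of what brought the gene to notice.

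The other Rbfox3 probe sets did not show this separation. Probe set 1456149_at, just above the limit, read 4.49, 4.10 and 4.48 in TAC and 4.77, 4.48 and 4.42 in sham arrays. Its groups overlapped, with means of 4.36 ± 0.22 after TAC and 4.56 ± 0.19 after sham and a difference of -0.20. That small difference was -0.09 without sham 1 and -0.07 without TAC 2, and -0.27 without sham 3. Probe set 1427286_at lay between 2.76 and 2.83 in TAC and between 2.72 and 2.90 in sham arrays, below the limit throughout. The 3 probe sets of this gene thus gave a difference of 1.53, a difference of -0.20 and no reliable signal. All 3 were designed on an expressed sequence tag or other GenBank entry. Which transcripts of Rbfox3 each probe set matches was not examined here.

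Rbfox2, the most widely expressed family member in other tissues, was read above the limit by 1 of 4 probe sets and in sham arrays only. Probe set 1418245_a_at read 2.89, 2.81 and 2.85 in TAC 1, 2 and 3, against 4.68, 5.56 and 5.06 in sham 1, 2 and 3. All TAC values were below the limit and close to each other, and all sham values were above it and spread over nearly 1 log2 unit. The means were 2.85 ± 0.04 after TAC and 5.10 ± 0.44 after sham, and the computed difference of -2.25 is unreliable in size because the TAC side is at the bottom of the scale. When low readings were raised to log2 4 the difference was -1.10, or 2.14-fold. That size is set by the chosen limit and the sham mean, and is no measured minimum. On the linear scale the readings were 7.43, 7.0 and 7.21 in TAC and 25.7, 47.1 and 33.3 in sham arrays, all of them low.

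The 3 further Rbfox2 probe sets gave no signal to set beside it. Probe set 1418247_s_at lay between 3.23 and 3.28 in TAC and between 3.13 and 3.41 in sham arrays. Probe set 1418246_at lay between 3.17 and 3.24 in TAC and between 3.02 and 3.37 in sham arrays. Both come from the same source sequence as 1418245_a_at in the platform annotation, an expressed sequence tag or other GenBank entry. Neither of them separated the groups (differences of 0.03 and 0.04). Probe set 1434938_at read 2.79, 2.92 and 3.05 in TAC and 3.97, 2.89 and 2.88 in sham arrays, where sham 1 fell just short of the limit. In sham 1, the array with the largest 3′ bias, all 3 of these probe sets had their highest value of the 6 arrays. The Rbfox1 and Rbfox3 probe sets that stayed below the limit on every array also had their highest value in sham 1. That array had the highest median linear intensity over all probe sets, 10.87 against 9.14 to 10.12 on the other arrays. The medulla is a mixture, and in bulk RNA fewer cells that express a gene and less RNA per cell cannot be told apart.

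Rbfox1, a splicing factor of neurons and muscle, was read by 2 probe sets that placed the groups in opposite order and overlapped between groups in both. Probe set 1418314_a_at, designed on a RefSeq transcript, read 7.0, 6.26 and 6.96 in TAC and 7.75, 6.41 and 6.92 in sham arrays. Its means were 6.74 ± 0.41 after TAC and 7.03 ± 0.68 after sham, a difference of -0.29. Without sham 1 that difference was 0.07, and without TAC 2 it was -0.05, while without sham 2 it was -0.60. Probe set 1455358_at read 5.76, 6.57 and 5.63 in TAC and 4.62, 5.63 and 5.77 in sham arrays. Its means were 5.99 ± 0.51 after TAC and 5.34 ± 0.63 after sham, a difference of 0.65. That was 0.29 without sham 1 and 0.36 without TAC 2, but 0.86 without sham 3. Against a pooled SD within groups of 0.56 and 0.57, the first difference was smaller than the spread between arrays and the second was of about its size.

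The same 2 arrays held the extremes of both Rbfox1 probe sets, in opposite order. TAC 2 had the lowest value of 1418314_a_at and the highest of 1455358_at. Sham 1 had the highest value of 1418314_a_at and the lowest of 1455358_at. Sham 1 also had the largest Gapdh 3′ minus 5′ difference. TAC 2 had the smallest of the TAC arrays, at 3.67, but sham 2 and sham 3 lay lower still, at 3.08 and 2.88. The part of 3′ bias in these Rbfox1 readings was not tested. With the Gapdh difference as a covariate in the fit, the differences between groups were -0.50 for 1418314_a_at and 0.86 for 1455358_at. Rbfox1 was still above the limit on all 6 arrays by both probe sets. Its probe sets 1438217_at, between 2.60 and 2.81 in TAC and between 2.58 and 2.86 in sham, and 1447735_x_at, between 2.05 and 2.10 in TAC and between 1.99 and 2.58 in sham, stayed below it.

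**Figure D2:**
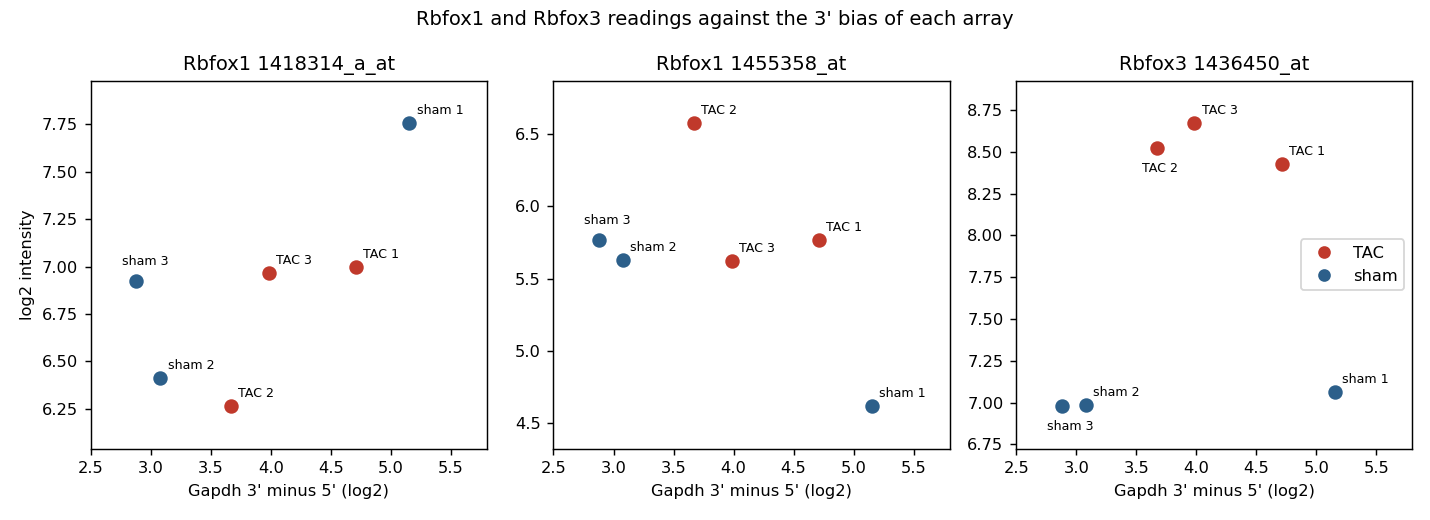
Log2 intensity (vertical axes, a scale of its own in each panel) of both measured Rbfox1 probe sets and of Rbfox3 1436450_at against the Gapdh 3′ minus 5′ log2 difference of each array (horizontal axis). Points are arrays, red for TAC and blue for sham. Sham 1, at 5.15, has the highest reading of Rbfox1 1418314_a_at and the lowest of 1455358_at, while the 3 TAC arrays lie above the 3 sham arrays for Rbfox3.

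The Rbfox3 and Rbfox2 readings were also set against 3′ bias. Among the 3 arrays of larger Gapdh difference (TAC 1, TAC 3 and sham 1) Rbfox3 1436450_at differed by 1.49, and among the other 3 (TAC 2, sham 2 and sham 3) by 1.54. With the Gapdh difference as a covariate its difference was 1.53. Rbfox2 1418245_a_at differed by -1.81 within the first 3 arrays and by -2.50 within the other 3, and by -2.16 with the covariate. Since the groups of these probe sets do not overlap, the sign had to be the same in both subsets. For Rbfox3 1436450_at the size was nearly fixed too, here and with arrays left out, by the small spread for which it was noticed. The part of 3′ bias in these readings was not tested. Over 14 alternatives in scaling, low values, arrays left out, blocks and covariates, Rbfox3 1436450_at ranged from 1.42 to 1.59 and Rbfox2 1418245_a_at from -2.50 to -1.10.

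**Figure D3:**
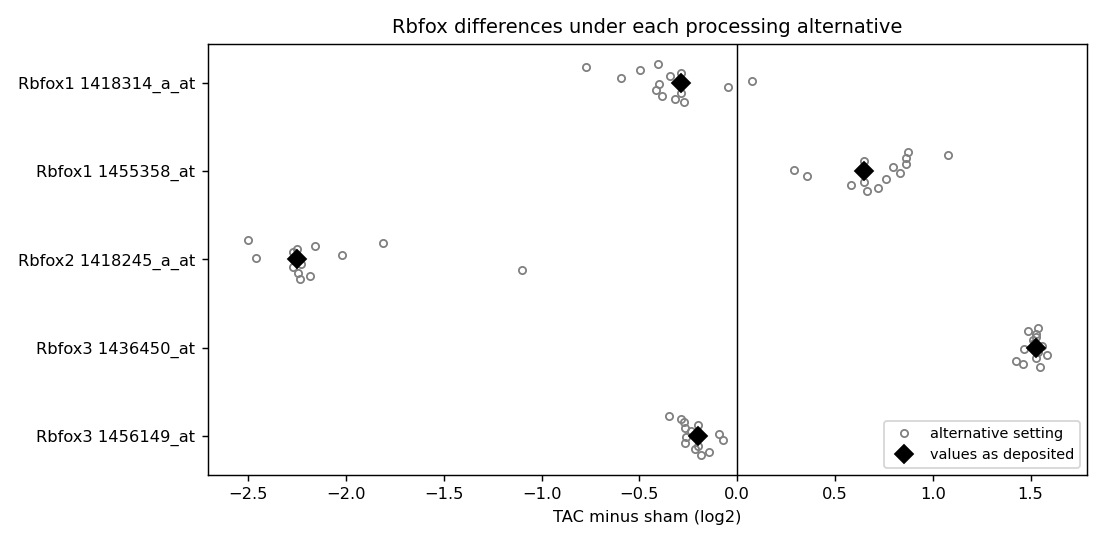
TAC minus sham difference in log2 intensity (horizontal axis) of the 5 Rbfox probe sets that passed the filter (vertical axis), with the values as deposited (black diamonds) and under each of 14 alternatives (open circles). Rbfox3 1436450_at stays between 1.42 and 1.59, Rbfox1 1418314_a_at reaches 0.07 without sham 1, and the Rbfox2 circle at -1.10 is the difference with low values set to log2 4.

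Rbfox3 is a neuronal marker, and the other neuronal markers mostly lay lower after TAC. Of 12 such genes 11 were measured, Gap43 staying below the limit, and 2 had a higher and 9 a lower mean after TAC, with a median difference of -0.45. Over all 10181 tested genes the median was 0.09, with 58.7% higher. None of the 11 passed limma's threshold of 0.05 after Benjamini-Hochberg adjustment over all tested probe sets (0 of 11, against 0% of all probe sets), and 1 of 11 had an unadjusted p under 0.05, near the 6.94% of all tested probe sets. That gene was Map2, which encodes a microtubule protein of dendrites. It read 9.17, 9.63 and 8.96 in TAC and 9.66, 10.56 and 10.02 in sham arrays, and every TAC value was below every sham value (difference -0.83 ± 0.33 SE, limma adjusted p = 0.706).

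Among the other neuronal genes, Nefh, the heavy neurofilament chain, shared the order of the groups with Rbfox3. It read 8.22, 8.59 and 8.36 in TAC and 8.09, 8.12 and 8.05 in sham arrays, without overlap and by a difference of 0.30 ± 0.22 SE (limma adjusted p = 0.932). Elavl3, which encodes a neuronal RNA-binding protein, differed by 0.37 ± 0.29 SE with overlap. The light and middle neurofilament genes Nefl (-1.71 ± 1.06 SE) and Nefm (-0.50 ± 0.36 SE), the microtubule regulator gene Stmn2 (-1.14 ± 0.84 SE) and the fusion protein gene Snap25 (-0.55 ± 0.46 SE) had lower means after TAC. So did the neuronal tubulin gene Tubb3 (-0.45 ± 0.27 SE), Elavl4 (-0.45 ± 0.54 SE), the intermediate filament gene Prph (-0.37 ± 0.27 SE) and the ubiquitin hydrolase gene Uchl1 (-0.35 ± 0.54 SE). A second probe set turned the sign for Snap25 (0.70) and Elavl3 (-0.17). Nefl read 2.83 in TAC 1, below the limit, against 6.69 and 4.81 in TAC 2 and 3, and its second probe set gave -0.25. Further probe sets of Map2, Stmn2 and Elavl4 kept the lower direction. Tubb3 (3.96 to 4.92 over the arrays) and Prph (3.78 to 4.71) read near the limit.

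The mean of the neuronal markers lay between 6.78 and 7.66 in TAC and between 7.17 and 8.18 in sham arrays, overlapping (exact 2-sided permutation p = 0.2). Its part in the Rbfox readings was not tested, and which cells of the medulla express these genes was not examined. Leaving out single arrays gave a list median of -0.90 (sham 1), -0.80 (TAC 2), -0.30 (TAC 1) or -0.29 (sham 2), and it was -0.08 in the 3 arrays of larger Gapdh difference.

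Markers of other cells that the dissected tissue can hold were followed in the same way. Glial markers had a mean from 7.21 to 8.21 in TAC and from 6.99 to 7.48 in sham arrays (6 of 8 measured, 5 higher, median 0.79, exact permutation p = 0.3). The glial median was 0.45 without TAC 2, 0.46 without TAC 3 and 0.52 without sham 1. The glial mean included Gfap, which read 1.78 in TAC 1 and 1.81 in sham 1, below the limit. The glial gene with a lower mean after TAC was S100b (-0.21). Fibroblast markers had a mean from 6.12 to 7.41 in TAC and from 7.05 to 8.51 in sham arrays (7 of 8 measured, 6 lower, median -1.40, exact permutation p = 0.2). The cortex markers (6 of 9 measured, 4 lower, median -0.76) overlapped widely between groups. Their defining genes Cyp11b2, Nr5a1 and Mc2r had no probe set reaching the limit on 3 arrays. The cortex median turned to 0.97 without sham 3 and 0.26 without TAC 3, and it was -1.76 without sham 2 and -1.50 without TAC 1. The endothelial markers Pecam1, Cdh5 and Kdr and the smooth muscle markers Myh11 and Cnn1 had no probe set reaching the limit on 3 arrays. The same held for the macrophage markers Cd68, C1qc and Aif1. Chromaffin markers had a median of 0.03, and of -0.001 to 0.23 with 1 array left out. The endothelial (3 of 6 measured), smooth muscle (4 of 6) and macrophage lists (4 of 7) had medians of -1.17, 0.14 and 0.28, and these rested on few genes and on single arrays. With 1 array left out the endothelial median ranged from -1.51 (without sham 1) to -0.06 (without sham 3), and it was 0.72 when only genes averaging at least log2 6 were kept. In the same way the smooth muscle median ranged from -0.53 (without TAC 3) to 0.57 (without TAC 1) and the macrophage median from 0.05 (without sham 1) to 0.86 (without TAC 1). None of the measured members of these 7 lists passed limma's adjusted threshold (0 in each list), while 3 of 6 glial, 4 of 7 fibroblast, 1 of 4 smooth muscle and 1 of 4 macrophage genes had an unadjusted p under 0.05, against 6.94% of all tested probe sets. The part of these cells in the Rbfox readings was not tested. Whether each marker is limited to its cell type in this tissue was not examined.

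Rbfox proteins act within a larger assembly of splicing regulators, and the genes of their partners did not separate the groups as a list. Of 9 partner genes 8 were measured, 3 with a higher and 5 with a lower mean after TAC, and the median was -0.28. None passed limma's adjusted threshold (0 of 8, against 0% of all tested probe sets). At an unadjusted limma p under 0.05 there were 0 of 8, against 6.94%, which is near that share for so few genes. The smallest p belonged to Hnrnph2, which encodes a ribonucleoprotein that binds G-rich RNA. It read 10.34, 10.77 and 9.93 in TAC and 10.63, 11.49 and 11.41 in sham arrays, with overlap (difference -0.83 ± 0.36 SE, limma adjusted p = 0.734). Hnrnpc, whose product binds U-rich stretches of nascent transcripts, differed by 0.37 ± 0.24 SE and by -0.57 in another probe set. Hnrnpul2 differed by -0.37 ± 0.27 SE and by 0.21 in another probe set. Ilf2, which encodes a double-stranded RNA-binding partner protein, differed by -0.28 ± 0.22 SE, with all TAC values below all sham values. Ddx5, an RNA helicase gene added after its values were seen, had all TAC values above all sham values (difference 0.28 ± 0.23 SE), while its other probe sets differed by -0.45 to 0.33. The list median was -0.11 without sham 2, -0.39 without TAC 2 and 0.12 in the 3 arrays of larger Gapdh difference.

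Other regulators of alternative splicing were balanced between directions. Of 36 genes 26 were measured, 13 with a higher and 13 with a lower mean after TAC (median -0.001), 0 of 26 passed limma's adjusted threshold and 3 of 26 had an unadjusted p under 0.05, against 6.94% of all tested probe sets. The median was between -0.004 and 0.16 with 1 array left out. Msi2, which encodes a Musashi RNA-binding protein, read 8.62, 7.40 and 7.26 in TAC, against 10.71, 9.36 and 9.02 in sham arrays. Every TAC value was below every sham value (difference -1.94 ± 0.58 SE, limma adjusted p = 0.560), and a second probe set gave -1.05 while 2 more gave 0.003 and 0.12. Its relative Msi1 read 5.44, 4.37 and 4.28 in TAC and 4.04, 3.77 and 3.49 in sham arrays, 2 of the sham values being under the limit (difference 0.93 ± 0.38 SE, limma adjusted p = 0.717).

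Elavl2, which encodes a neuronal RNA-binding protein, read 6.75, 6.03 and 5.53 in TAC and 7.98, 6.89 and 7.02 in sham arrays, without overlap (difference -1.19 ± 0.45 SE, limma adjusted p = 0.682). Its other probe sets gave -0.22 and -0.16. Tial1, which encodes a protein that binds U-rich RNA at splice sites, differed by 0.61 ± 0.28 SE without overlap (limma adjusted p = 0.774). Its 3 other probe sets gave 0.05, 0.41 and 0.06. The neuronal splicing regulator genes Nova2 and Srrm4 had no probe set reaching the limit on 3 arrays.

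Genes with exons or transcripts known to be controlled by Rbfox proteins showed no common direction in amount. Of 17 such genes 9 were measured, 6 with a higher and 3 with a lower mean after TAC, and the median was 0.07. None of the 9 passed limma's adjusted threshold (0 of 9, against 0% of all tested probe sets). At an unadjusted limma p under 0.05 there were 0 of 9, against 6.94%, again near that share for so few genes. Mef2a, a muscle and neuronal transcription factor gene, differed by 0.84 ± 0.51 SE (limma adjusted p = 0.884) in the brightest probe set and by -0.93, -0.59 and -1.49 in 3 others. The tyrosine kinase gene Src read 5.81, 6.0 and 5.92 in TAC and 5.01, 5.79 and 5.72 in sham arrays, without overlap (difference 0.40 ± 0.29 SE, limma adjusted p = 0.930). Ptbp2, itself a neuronal splicing repressor gene, read 8.18, 7.62 and 7.22 in TAC and 7.0, 7.62 and 7.15 in sham arrays, with overlap (difference 0.42 ± 0.34 SE). The list median was -0.04 without TAC 2 and -0.02 after cyclic loess, and it was 0.24 without sham 3, 0.15 without TAC 3, 0.12 without sham 1 or without sham 2, and 0.23 in both subsets by Gapdh difference. The plot of the gene lists shows these genes beside the cell type markers.

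**Figure D4:**
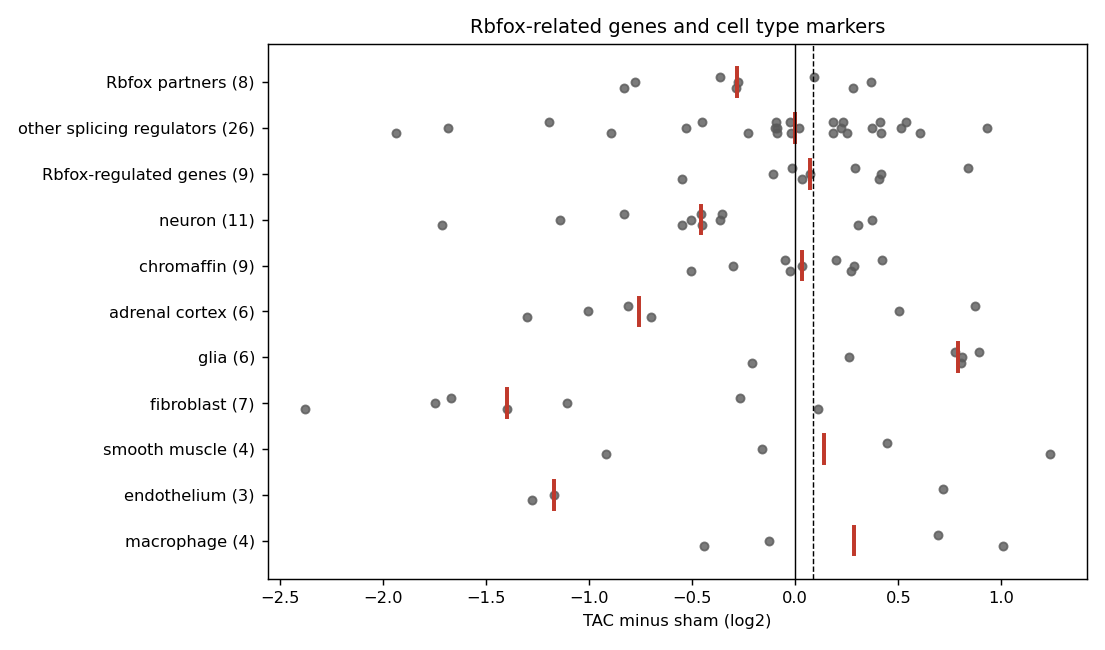
TAC minus sham difference in log2 intensity (horizontal axis) of the measured genes (points, number in brackets) of 3 Rbfox-related lists and 8 cell type marker lists (vertical axis). Red bars are list medians, the solid line marks 0 and the dashed line the median of all tested genes, 0.09. The Rbfox-related lists lie on both sides of 0, with medians of -0.28, -0.001 and 0.07, and the neuron median is -0.45.

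Over all tested probe sets, 0 of 18188 passed limma's adjusted threshold (lowest adjusted p 0.384), and 1263, or 6.94%, had an unadjusted p under 0.05. Leaving out single arrays moved this to 703 (TAC 3), 2395 (sham 1), 639 (sham 2) or 768 (sham 3).

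The genes whose profile over the 6 arrays lay nearest to that of Rbfox3 1436450_at were sought among 9815 named genes, by the root mean square distance between profiles centred on their own mean. The nearest was Kcnh2, a potassium channel gene, at a distance of 0.14 against a median of 0.85. It read 7.69, 7.59 and 7.62 in TAC, against 6.01, 6.18 and 6.25 in sham arrays. Next came the deubiquitinase gene Usp46 (distance 0.16), the myosin gene Myo9b (0.16) and Mmrn2, which encodes a matrix protein of vessels (0.17). Cnih4, which encodes a protein of the secretory route, followed (0.20). All 5 were higher in each TAC than in each sham array, as likeness to Rbfox3 requires. Other probe sets of the same genes gave differences of 0.09 for Usp46, 0.90 and 0.01 for Mmrn2 and -0.75 for Cnih4.

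The 5 genes nearest to Rbfox2 1418245_a_at were Plcxd3 (distance 0.29, against a median of 1.26), Smim11 (0.46), Rgs7bp (0.47), the retinol dehydrogenase gene Rdh11 (0.49) and the chromatin protein gene Hmgb3 (0.52). Plcxd3, a gene of the phospholipase family, shared the low readings after TAC, with 3.88, 3.74 and 3.58 in TAC and 5.23, 6.02 and 6.38 in sham arrays. Rgs7bp, which encodes a membrane anchor of G protein regulators, read 4.13, 3.40 and 3.28 in TAC and 5.25, 5.23 and 5.29 in sham arrays. The other tested probe sets of Rgs7bp (-0.63) and Rdh11 (-1.32) had the same sign. Distances involving Rbfox2 depend on TAC values below the limit. Likeness of profile over 6 arrays that fall into 2 groups mostly reflects the difference between the groups.

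**Figure D5:**
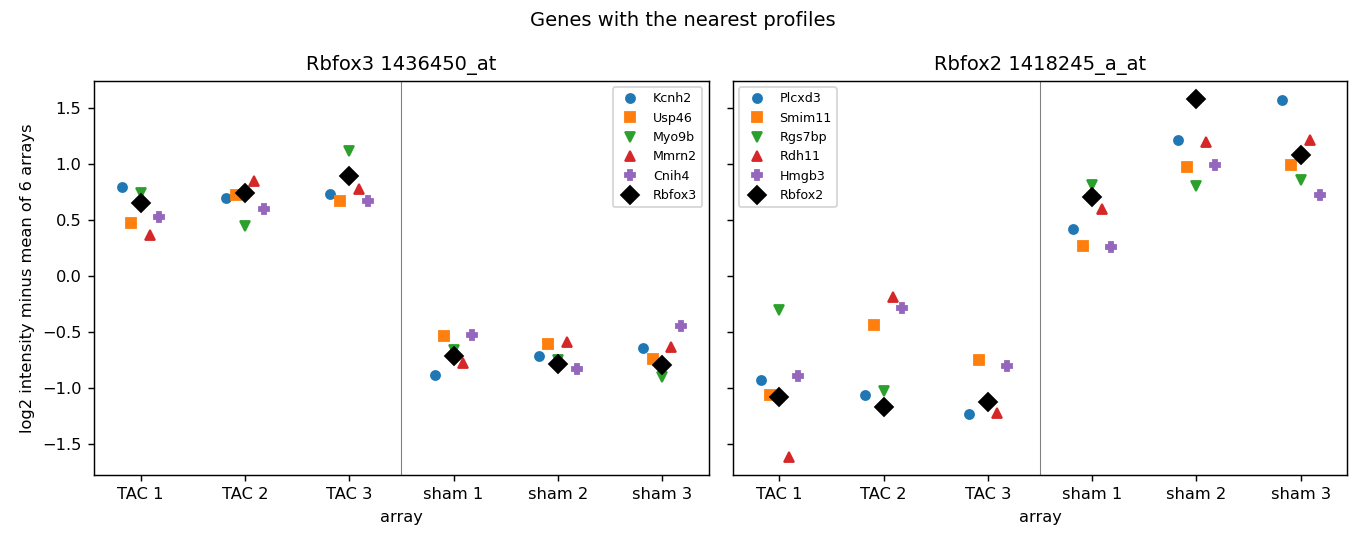
Log2 intensity minus the mean of the 6 arrays (vertical axis) on the 3 TAC and 3 sham arrays (horizontal axis) for Rbfox3 1436450_at and Rbfox2 1418245_a_at (black diamonds), each with the 5 genes of nearest profile (coloured markers). Kcnh2 lies nearest to Rbfox3, at a root mean square distance of 0.14, and Plcxd3 nearest to Rbfox2, at 0.29.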

How the data were processed

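Each value of the deposited table is a linear intensity of 1 probe set on 1 array, background corrected by the authors with GCRMA per the submitters' processing notes, where neither version, options nor scaling between arrays are stated. The intensities were transformed to log2, and 64 array controls were left out. GEO's platform annotation gave 1 symbol for 34945 probe sets, several for 932 and none for 9160. A RefSeq table held the Entrez identifiers of 34741 and updated 0 symbols. Coordinates are left out, since no genome build is named with the values.

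A probe set was tested if at least 3 arrays reached log2 4, which 18188 did. TAC was tested against sham by limma (version 3.58.1, R 4.3.3, 2-sided moderated fit with 4 residual degrees of freedom and no covariate), with Benjamini-Hochberg adjustment over all of them. The probe set of highest mean represented its gene. Single array measures had exact permutation tests. The number of arrays limits the precision, and the median SE of a difference was 0.39. In 10 simulated draws for TAC against sham, 200 of 18188 probe sets were changed and the noise was independent. Of 2-fold changes 0.4% were recovered, of 4-fold 27.2%, of 8-fold 55.8% and of 16-fold 69.2%, with a mean of 4.1 false calls. Deviations of the real arrays are shared between probe sets, so these shares hold for the simulated setting only. The members and lists were chosen with earlier results of these data known. The text names all Rbfox probe sets, the 4 genes of smallest p in each splicing list, all measured neuron markers and the 5 nearest profiles to Rbfox3 and Rbfox2, passing over clone names and predicted genes.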

Additional observations from a re-analysis of the deposited data

How the results depend on the processing

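The count of probe sets with an adjusted p under 0.05 was 0 in each of the 14 alternative limma fits, with a smallest adjusted p of 0.0595, reached with the Gapdh difference as a covariate. At an unadjusted p under 0.05 the count was 1263 as reported, 2110 without a filter on low values, 3843 with the Gapdh covariate and 639 to 2395 with 1 array left out. With the replicate number as a block it was 3005. The labels do not say that equal numbers share anything, so the numbers were not taken as pairs. Deviations of same-numbered arrays correlated at 0.76, 0.78 and -0.22, and those of unlike-numbered arrays at -0.84 to 0.71. The difference of Rbfox3 1436450_at was 1.42 after cyclic loess, against 1.53. That of Rbfox2 1418245_a_at was -1.10 with low values set to 4, where the floor itself shortens it, and -1.81 among the 3 arrays of larger Gapdh difference, which hold 1 sham array. For Rbfox1 1418314_a_at 13 of 14 alternatives kept the sign, and for the other 4 measured Rbfox probe sets all 14 did. The groups of Rbfox3 1436450_at and Rbfox2 1418245_a_at do not overlap, so leaving out or splitting arrays could not turn their sign. The small spread of Rbfox3 1436450_at within groups, for which it was noticed, likewise kept its size close. The balanced replicate block leaves each difference unchanged by design. With 1 array left out, Rbfox3 1436450_at ranged from 1.46 to 1.59 and Rbfox2 1418245_a_at from -2.46 to -2.02. The Rbfox2 size is limited by signal near background.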
